A study of Mus musculus with 6 samples.

Results

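The genes of sterol and fatty acid synthesis were followed here in natural killer (NK) cells sorted from mouse spleen. The set holds 36 genes chosen by name, among 50686 genes of the count table, and each matched 1 row. It consists of 18 enzymes of the mevalonate and sterol route, 12 enzymes of fatty acid synthesis, elongation and desaturation, and 6 genes around the sterol regulatory element-binding proteins (SREBPs). RNA was sequenced in 6 libraries. The 3 WT libraries came from healthy C57BL/6J mice labelled wild type. The 3 Eumyc libraries came from C57BL/6J mice that had received Eµ-myc lymphoma cells into a vein, with spleens taken at day 14 after inoculation. Eµ-myc lymphoma is a B cell tumour in which an immunoglobulin heavy chain enhancer drives the Myc oncogene, so the oncogene belongs to the injected tumour and not to the NK cells. The labels give no age for either group. They also do not say whether libraries of a group are from different mice, and the p-values therefore measure only the spread between these libraries, which may be technical.

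In both groups spleen cells had been depleted of B cells, enriched with CD49b beads and sorted as NK1.1 positive and T cell receptor beta negative. For the Eumyc samples the fraction that the beads had not bound was sorted as well, so this step and the lymphoma cannot be told apart. The WT libraries held 16407611 to 36534191 gene counts and the Eumyc libraries 44456157 to 66615602. Of the 10 NK cell markers examined, none was at 0 in every library, and their summed level was 14461 to 14678 CPM, counts scaled to the library total, in WT and 12877 to 13784 in Eumyc. Of these NK markers 6 fell and 1 rose in edgeR, with Klrd1 at 0.615-fold, Klrk1 at 0.655-fold and Klrb1c, which encodes the sorted NK1.1 antigen, at 0.718-fold. The summed levels of the marker lists of other cells were higher in Eumyc. The 10 monocyte and macrophage markers summed to 164 to 202 CPM in WT and 483 to 1097 in Eumyc, the 10 B lineage markers to 16.4 to 19.7 and 51.2 to 57.4, the 10 T cell markers to 119 to 126 and 191 to 231, and the 10 neutrophil markers to 3.28 to 5.85 and 59.6 to 86.0. The 9 erythroid markers in the table summed to 14.9 to 33.8 and 61.8 to 73.3 CPM, and 15 genes of cell division to 330 to 787 and 2367 to 3368. By edgeR calls, 5 of 10 tested monocyte and macrophage markers, 8 of 9 B lineage, 9 of 9 neutrophil, 8 of 9 erythroid and 15 of 15 cell division genes rose, and 0 fell. For T cells 4 of 10 rose and 6 did not pass, and Cd3d (17.0 to 55.2 CPM) and Cd3g (14.9 to 64.8 CPM) made up most of the summed rise. In all of these lists 0 markers lacked counts in every library, and the part of these cells in the differences below was not tested. In such bulk libraries fewer cells of a type and less RNA per cell cannot be told apart.

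Cells make cholesterol from acetyl-CoA by way of mevalonate, isoprenoids, squalene and lanosterol, and they make fatty acids from the same acetyl-CoA through malonyl-CoA. Both routes are under the control of the SREBP transcription factors, which SCAP carries out of the endoplasmic reticulum when sterols are low and which INSIG proteins hold back when sterols are plentiful. Dividing and activated lymphocytes need both routes for new membrane, and in NK cells SREBP activity is known to be tied to the metabolic response to cytokines.

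Of the 34 sterol and fatty acid genes tested, 16 were higher and 4 lower in Eumyc NK cells, and 14 did not pass. Of the sterol enzymes, Idi1 and Sqle had the largest rises of any tested member, followed within the route by Cyp51 and Fdft1, while 10 of 18 did not pass the test and Tm7sf2 fell. The transcription factor genes Srebf1 and Srebf2 rose, and the genes of their retention and escort proteins, Insig1, Insig2 and Scap, did not pass. Among fatty acid genes the main chain-building enzymes rose by small steps, whereas Acss2 and Scd2 fell.

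These calls come from edgeR's quasi-likelihood test over all 15458 genes that passed the filter on low counts, at a Benjamini-Hochberg adjusted p under 0.05. Over all tested genes, 25.7% were called higher and 23.1% lower. The members' shares were 47.1% and 11.8%. The median log2 fold change was 0.30 over the members and 0.00 over all tested genes. Since the genes of a set are not independent of each other, these shares describe the set and carry no test. By class, 7 of 18 sterol enzymes rose and 1 fell (median 0.38), 3 of 6 SREBP genes rose and 0 fell (median 0.27), and 6 of 10 tested fatty acid enzymes rose and 3 fell (median 0.23). The fatty acid class thus had 1 tested gene without a call, where the sterol class had 10. Whether the classes differ was not tested. In CPM, all Eumyc libraries lay above all WT libraries for 19 members, and for 31.3% of all tested genes. They lay below for 5 members, and for 28.9% of all tested genes.

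Against a change of 1.5-fold, 5 members were higher (Idi1, Fdft1, Sqle, Cyp51 and Fads1) and 1 was lower (Acss2), where 8.15% of all tested genes were called higher and 3.67% lower. No SREBP gene passed at that size, with Srebf2 nearest at an adjusted p of 0.0849 in edgeR. In the authors' deposited table, which lists 32 of the 36 members, 15 are higher and 4 lower at an adjusted p under 0.05, and the side of the threshold and direction are the same as here for all 32.

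**Figure D1:**
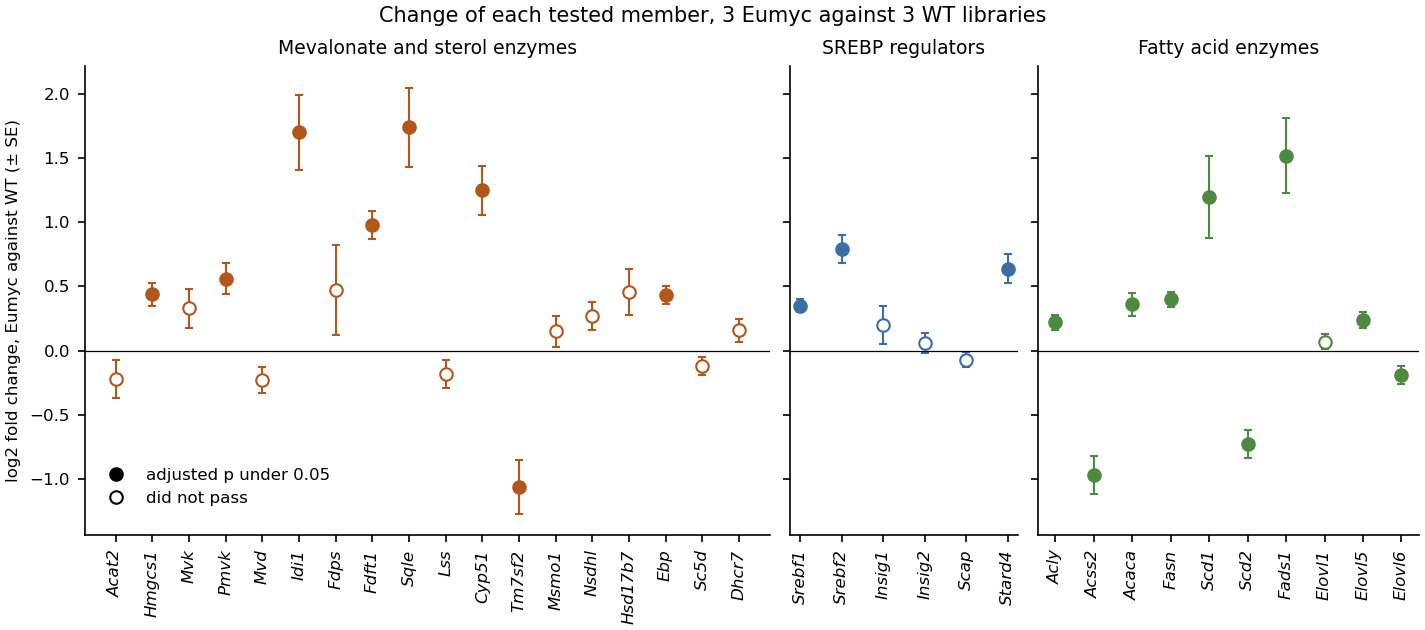
Log2 fold change of each of the 34 tested members between 3 Eumyc and 3 WT libraries, with its standard error, by class and in the order of the route; filled points had an edgeR adjusted p under 0.05. Sqle and Idi1 stand at 1.74 and 1.70, and Tm7sf2, Acss2 and Scd2 are below 0 at -1.06, -0.97 and -0.73.

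The first steps of the sterol route make mevalonate. Acat2, whose enzyme joins acetyl-CoA units, had means of 12.8 ± 2.59 CPM in WT and 11.1 ± 0.516 CPM in Eumyc (SD, n = 3 each). The groups overlapped, WT 3 was the lowest library, and the gene did not pass (log2 fold change -0.22 ± 0.15 SE, edgeR adjusted p = 0.265). Without WT 3 it passed as lower in edgeR (-0.36, adjusted p = 0.0276). Another annotated gene, Acat3, is near-identical in sequence, so the value for Acat2 is uncertain. Hmgcs1, which encodes HMG-CoA synthase and lies on chromosome 13 from 119690462 to 119708086 (GRCm38, as are all positions below), rose from 38.2 ± 2.02 to 51.9 ± 5.45 CPM (SD, n = 3 each). Its fold change was 1.36 (adjusted p = 0.00440 in edgeR).

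The kinases and decarboxylase that turn mevalonate into isopentenyl diphosphate were uneven. Pmvk, the phosphomevalonate kinase gene (chromosome 3, 89454541 to 89469013), was at 9.96, 8.98 and 9.65 CPM in the WT libraries, against 14.5, 12.5 and 15.1 in Eumyc. Every Eumyc library was above every WT library, and the gene rose by 0.56 ± 0.12 (SE) on the log2 scale (edgeR adjusted p = 0.00505). Mvk, the mevalonate kinase gene, had means of 4.88 and 6.12 CPM with an adjusted p of 0.103 in edgeR. Mvd, the decarboxylase gene, had means of 23.4 in WT and 19.9 in Eumyc with an adjusted p of 0.0929, and all Eumyc libraries were below all WT libraries.

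Idi1 encodes the isomerase that makes the reactive isoprenoid unit and lies on chromosome 13 from 8885501 to 8892451. It was at 1.26, 2.00 and 2.58 CPM in the WT libraries, against 8.03, 4.86 and 5.78 in Eumyc. The highest WT library was below the lowest Eumyc library, and Eumyc 1 was the highest of all. The log2 fold change was 1.70 ± 0.29 (SE), or 3.24-fold (edgeR adjusted p = 0.00205). Fdps, the farnesyl diphosphate synthase gene of the next step, had means of 0.584 ± 0.131 CPM in WT and 0.837 ± 0.235 CPM in Eumyc (SD, n = 3 each) and did not pass (edgeR adjusted p = 0.296). Its level is uncertain, since 26.7% of its exon bases lie in exons of the same-strand gene Gm43738, and 4 annotated genes have a transcript of at least 95% identity over at least 50% of its length. Those genes are Gm3571, Gm5873, Gm8163 and Gm43738.

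Fdft1, Sqle and Cyp51 commit isoprenoids to squalene, oxidise squalene and demethylate lanosterol. Fdft1, the squalene synthase gene (chromosome 14, 63145153 to 63177793), stood at 8.62, 8.71 and 8.99 CPM in the WT libraries, against 18.4, 15.8 and 17.6 in Eumyc. The WT libraries were nearly level, and the gene rose 1.97-fold (log2 fold change 0.98 ± 0.11 SE, edgeR adjusted p = 0.000331). Of its exon bases 18.3% are shared with Ctsb on the other strand, a cathepsin gene that rose by 1.04 on the log2 scale (edgeR adjusted p = 0.000312), and no source used here gives the strand setting of the counting. The next largest shares with genes on the other strand were 13.2% for Scap, 12.1% for Hmgcs1, 9.22% for Idi1 and 9.12% for Acss2. Sqle, which encodes squalene epoxidase (chromosome 15, 59315077 to 59331192), was at 2.74, 2.03 and 3.18 CPM in the WT libraries, against 12.6, 5.89 and 7.78 in Eumyc. All Eumyc libraries were higher than all WT libraries, with Eumyc 1 well above the other two. The fold change was 3.35 (log2 fold change 1.74 ± 0.31 SE, edgeR adjusted p = 0.00225). Cyp51, the lanosterol demethylase gene (chromosome 5, 4081145 to 4104746), was at 9.24, 7.63 and 10 CPM in the WT libraries, against 27.2, 16.7 and 19.7 in Eumyc. It rose 2.38-fold (log2 fold change 1.25 ± 0.19 SE, edgeR adjusted p = 0.00128), again with Eumyc 1 the highest library.

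Lss, the lanosterol synthase gene that acts between Sqle and Cyp51, did not follow them. Its means were 22.0 ± 2.30 CPM in WT and 19.5 ± 1.72 CPM in Eumyc (SD, n = 3 each; edgeR adjusted p = 0.214). Tm7sf2, which encodes a sterol reductase that acts just after Cyp51 (chromosome 19, 6062821 to 6068373), was at 7.04, 9.95 and 5.81 CPM in the WT libraries, against 3.88, 3.62 and 3.51 in Eumyc. Every Eumyc library was below every WT library, and the gene fell by 1.06 (SE 0.21) on the log2 scale (edgeR adjusted p = 0.00355). Tm7sf2 shares 12.1% of its exon bases with Vps51 on the same strand, which had a log2 fold change of -0.24 (adjusted p = 0.0149).

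Of the 6 enzymes that finish cholesterol after Tm7sf2, 1 passed. Ebp, the sterol isomerase gene, rose from 39.4 ± 1.85 to 53.1 ± 0.937 CPM (SD, n = 3 each), a fold change of 1.35 (edgeR adjusted p = 0.00122). Msmo1, Nsdhl and Hsd17b7, whose enzymes act together to remove methyl groups at carbon 4, had log2 fold changes of 0.15, 0.27 and 0.46 with edgeR adjusted p-values of 0.324, 0.0840 and 0.0637. Hsd17b7 passed without WT 3 (adjusted p = 0.0448) and with both voom fits (0.0353 and 0.0408). Sc5d and Dhcr7, which act at the last steps, had log2 fold changes of -0.12 and 0.16 and did not pass (adjusted p = 0.203 and 0.186).

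Promoter sequences of sterol genes are shown because genes of the route that rose and genes that did not can be compared for the letters that SREBPs and their partner factor NF-Y are known to bind. The RefSeq table of GRCm38.p6 promoters, with 250 bases before and 50 after each start, matched 29 of the 36 members. The motifs were searched on both strands, the sterol regulatory element as TCACNCCAC, the NF-Y box as CCAAT and the E-box as CACGTG, and a gene with several windows counts once if any of them holds the letters. The 200 bases before the start are printed 5′ to 3′ on the gene's strand, with motif matches in capitals, for 3 genes that rose (Hmgcs1, Idi1 and Cyp51), 1 that did not pass (Mvd) and 1 that fell (Tm7sf2).
Hmgcs1, chr13:119690151-119690350, plus strand: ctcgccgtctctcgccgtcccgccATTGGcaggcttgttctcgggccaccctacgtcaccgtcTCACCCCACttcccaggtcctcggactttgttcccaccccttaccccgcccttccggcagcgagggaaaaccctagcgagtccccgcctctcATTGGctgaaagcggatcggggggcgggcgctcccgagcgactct
Idi1, chr13:8885406-8885605, plus strand: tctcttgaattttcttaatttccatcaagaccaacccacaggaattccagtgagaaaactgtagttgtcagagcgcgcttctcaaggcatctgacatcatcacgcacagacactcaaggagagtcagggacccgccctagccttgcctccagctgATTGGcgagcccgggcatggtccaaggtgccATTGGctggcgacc
Cyp51, chr5:4104698-4104897, minus strand: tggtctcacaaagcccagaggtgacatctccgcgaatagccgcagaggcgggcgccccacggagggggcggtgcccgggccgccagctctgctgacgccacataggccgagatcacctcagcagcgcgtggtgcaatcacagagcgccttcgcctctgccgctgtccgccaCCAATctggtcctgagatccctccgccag
Mvd, chr8:122443423-122443622, minus strand: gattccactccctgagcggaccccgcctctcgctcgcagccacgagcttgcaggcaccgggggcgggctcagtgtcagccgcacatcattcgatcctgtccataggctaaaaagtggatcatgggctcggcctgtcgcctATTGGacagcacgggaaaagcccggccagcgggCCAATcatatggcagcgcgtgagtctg
Tm7sf2, chr19:6067851-6068050, minus strand: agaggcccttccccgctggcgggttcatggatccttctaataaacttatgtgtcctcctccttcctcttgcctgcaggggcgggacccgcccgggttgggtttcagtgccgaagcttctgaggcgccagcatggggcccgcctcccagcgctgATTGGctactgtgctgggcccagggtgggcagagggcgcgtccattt
CCAAT, or ATTGG where it lies on the other strand, was found for 14 of 15 sterol enzymes with a window, 4 of 5 SREBP genes and 6 of 9 fatty acid enzymes, against 41.1% of all genes in the promoter table and 42.9% of those tested. Among the sterol enzymes it was there in 5 of 5 that rose, 8 of 9 that did not pass and the 1 that fell. Since nearly all sterol enzymes with a window hold these letters, their presence could not separate the genes by their change. Fdft1 and Sqle, which also rose, had no window and are not in this count. TCACNCCAC was found in 1 member, Hmgcs1, in 1.44% of all genes of the table and in 1.5% of those tested. Only these letters were searched for the sterol regulatory element, so other spellings of it would be missed. A match to any of the motifs is not a shown binding site. CACGTG was found in 6 of 29 members, in 8.09% of all genes and in 11.3% of those tested. Members without a window were Fdps, Fdft1, Sqle, Stard4, Scd1, Scd2 and Fads1.

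Of the 6 genes around the SREBPs, 3 rose and 3 did not pass, and whether their changes differ from each other was not tested. Srebf2, whose product favours sterol genes (chromosome 15, 82147266 to 82205376), was at 96.4, 88.2 and 111 CPM in the WT libraries, against 193, 161 and 157 in Eumyc. The lowest Eumyc library was above the highest WT library, and the fold change was 1.73 (log2 fold change 0.79 ± 0.11 SE, edgeR adjusted p = 0.000689). Srebf1, whose product favours fatty acid genes (chromosome 11, 60199089 to 60222581), stood at 127, 123 and 123 CPM in the WT libraries, against 161, 157 and 156 in Eumyc. Its rise was smaller and its libraries tighter (log2 fold change 0.35 ± 0.05 SE, edgeR adjusted p = 0.000806). Whether the 2 genes rose by different amounts was not tested. Per kilobase of exons, the level of Srebf2 was 0.564 to 0.711 times that of Srebf1 in WT and 0.791 to 0.941 times in Eumyc, and these ranges did not overlap.

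Insig1, itself a well-known SREBP target, was at 23.0, 17.6 and 16.2 CPM in the WT libraries, against 25.2, 19.7 and 20.6 in Eumyc. The groups overlapped, and the gene did not pass (log2 fold change 0.20 ± 0.15 SE, edgeR adjusted p = 0.303). Insig2 was at 22.6, 20.8 and 22.1 CPM in the WT libraries, against 23.5, 23.1 and 21.7 in Eumyc (0.06 ± 0.08, adjusted p = 0.559). Scap was at 85.8, 90.5 and 95.6 CPM in the WT libraries, against 83.0, 90.1 and 85.6 in Eumyc (-0.07 ± 0.06, adjusted p = 0.381). For neither gene were the groups apart, and the direction of both turned under 1 alternative each. Stard4, which encodes a cytosolic sterol carrier (chromosome 18, 33199355 to 33213862), was at 33.8, 31.9 and 42.2 CPM in the WT libraries, against 52.3, 55.7 and 59.1 in Eumyc. It rose 1.55-fold (log2 fold change 0.64 ± 0.11 SE, edgeR adjusted p = 0.00204), with no overlap between groups.

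**Figure D2:**
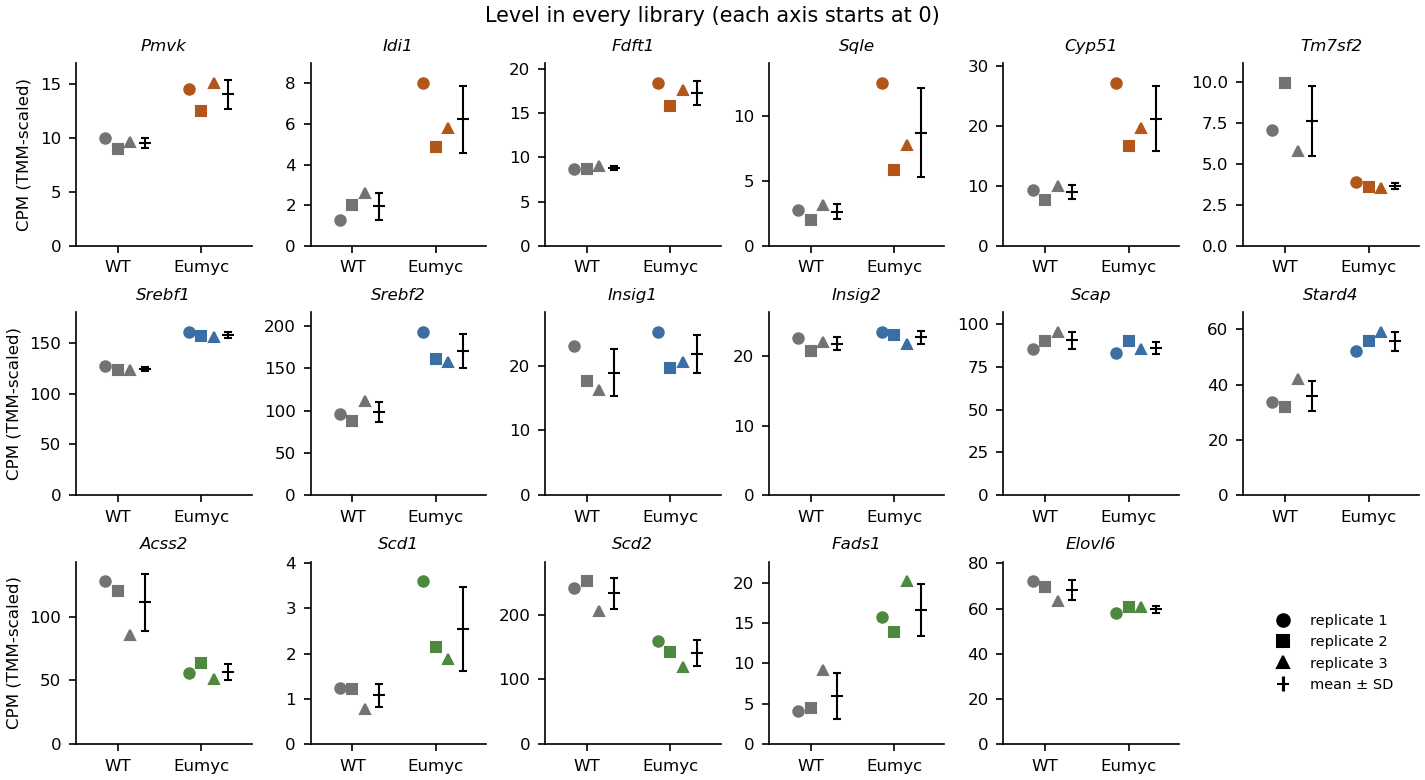
TMM-scaled CPM in each library, with mean and SD, for the 17 tested members whose values in every library are given (brown, sterol enzymes; blue, SREBP genes; green, fatty acid enzymes; grey, WT). Eumyc 1 is the highest library for Idi1, Fdft1, Sqle, Cyp51, Srebf1, Srebf2, Insig1, Insig2 and Scd1. WT 3 is the highest WT library for Fads1 at 9.23 CPM.

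Of the 2 enzymes that supply cytosolic acetyl-CoA, that for citrate rose and that for acetate fell. Acly, the ATP citrate lyase gene, went from 352 ± 12.7 to 409 ± 20.5 CPM (SD, n = 3 each), a fold change of 1.16 (edgeR adjusted p = 0.0178). Acss2, the acetyl-CoA synthetase gene (chromosome 2, 155517948 to 155585724), was at 128, 120 and 86.1 CPM in the WT libraries, against 55.6, 63.8 and 51.2 in Eumyc. All Eumyc libraries were lower, and the fold change was 0.509 (log2 fold change -0.97 ± 0.15 SE, edgeR adjusted p = 0.00110). Per kilobase of exons, Acly was 5.33 to 7.56 times as high as Acss2 in WT and 12.8 to 14.5 times in Eumyc. Me1, the cytosolic malic enzyme gene that can supply NADPH, had 0 counts in all 6 libraries, which allows a level of up to 0.0117 CPM over the series, by counting error alone.

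Both chain-building genes rose. Acaca, which encodes the acetyl-CoA carboxylase that makes malonyl-CoA, went from 36.3 ± 3.74 to 46.6 ± 1.79 CPM (1.28-fold, edgeR adjusted p = 0.00991). A near-identical copy, Gm5182, makes its value uncertain. Fasn, the fatty acid synthase gene, went from 284 ± 3.19 to 375 ± 23.6 CPM (SD, n = 3 each; 1.32-fold, edgeR adjusted p = 0.00114).

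The desaturase genes moved in both directions. Scd2, a stearoyl-CoA desaturase gene (chromosome 19, 44293676 to 44306864), was at 242, 252 and 206 CPM in the WT libraries, against 159, 143 and 120 in Eumyc. The groups did not overlap, and it fell by 0.73 (SE 0.11) on the log2 scale (edgeR adjusted p = 0.00127). Its neighbour Scd1 (chromosome 19, 44394451 to 44407709), which encodes the isoform best known from liver, was at 1.23, 1.22 and 0.779 CPM in the WT libraries, against 3.60, 2.15 and 1.88 in Eumyc. It rose by 1.20 ± 0.32 (SE) on the log2 scale (edgeR adjusted p = 0.0156) from a level near 1 CPM, and it did not pass without WT 3 and Eumyc 1 (0.73, adjusted p = 0.0884). Per kilobase of exons, Scd2 was 176 to 237 times as high as Scd1 in WT and 39.5 to 59.7 times in Eumyc and the ranges did not overlap.

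Fads1, the delta-5 desaturase gene of polyunsaturated fatty acids (chromosome 19, 10182888 to 10196870), was at 4.15, 4.52 and 9.23 CPM in the WT libraries, against 15.8, 13.9 and 20.2 in Eumyc. No Eumyc library was as low as a WT library, and WT 3 stood above WT 1 and 2. It rose 2.87-fold (log2 fold change 1.52 ± 0.29 SE, edgeR adjusted p = 0.00355). The libraries high in Fads1 within each group, WT 3 and Eumyc 3, were also those highest in the 15 cell division genes, at 787 CPM against 330 and 353 in WT and at 3368 CPM against 2367 and 2424 in Eumyc; the part of cell division in the result was not tested. Fads2, the delta-6 desaturase gene that acts before Fads1, had 0, 0 and 0 counts in WT and 17, 18 and 16 counts in Eumyc. It did not reach the filter of the main fit and has no call there. Against a limit of 3 counts over the WT group, or 0.0373 CPM, its Eumyc level of 0.289 CPM over the group was at least 7.75-fold higher.

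The elongase genes had log2 fold changes from -0.19 to 0.24. Elovl5, whose enzyme acts on polyunsaturated chains, rose 1.18-fold to 131 ± 2.21 CPM (SD, n = 3; edgeR adjusted p = 0.00859). Elovl1, which acts on very long saturated chains, was at 93.8 ± 3.34 and 98.5 ± 3.44 CPM (adjusted p = 0.327 in edgeR). Elovl6, which extends palmitate (chromosome 3, 129532355 to 129638495), was at 72.1, 69.4 and 63.1 CPM in the WT libraries, against 58.0, 60.5 and 60.8 in Eumyc. The groups did not overlap, and it fell by 0.19 (SE 0.07) on the log2 scale with an edgeR adjusted p of 0.0451. That call was lost without WT 1 or WT 2 and without any single Eumyc library (adjusted p = 0.0890 to 0.180).

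Levels of different genes were compared per kilobase of exons. Acly was the most abundant member in both groups, at 66.7 CPM per kilobase in WT and 77.5 in Eumyc. Scd2 came second in WT at 42.6 and was sixth in Eumyc at 25.8, below Elovl5, Elovl1, Fasn and Srebf1. The order of Elovl5 and Elovl1 turned over between the groups, but in each group their libraries came close, with Elovl5 at 30.1 to 33.2 and Elovl1 at 33.6 to 35.8 in WT. In Eumyc the corresponding ranges of 36.6 to 38.0 and 35.3 to 37.4 overlapped. The sterol enzymes with the largest rises began low, Sqle at 0.478 and Idi1 at 0.556 CPM per kilobase in WT, and in Eumyc they were still at 1.58 and 1.77. Ebp was the most abundant sterol enzyme in both groups, at 17.1 and 23.0. Acss2 went from rank 11 among the 36 members to rank 20.

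**Figure D3:**
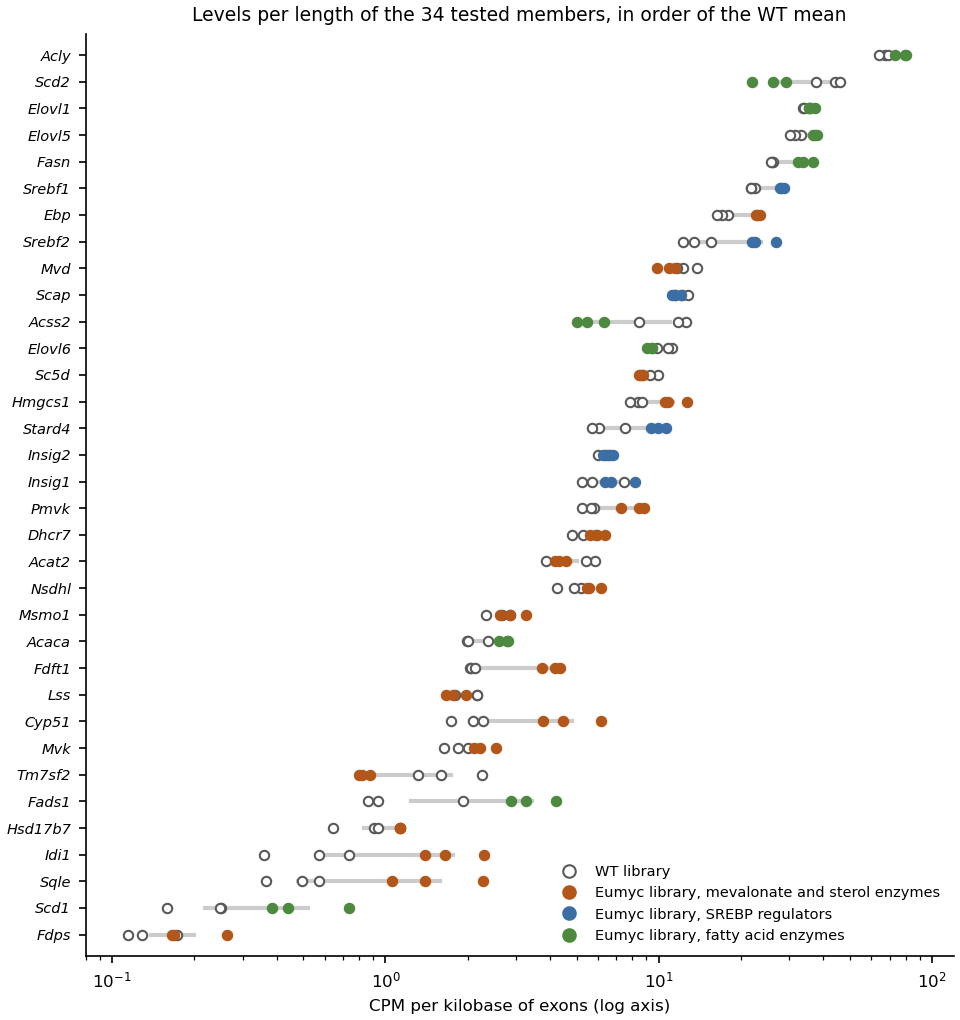
CPM per kilobase of exons (log axis) in each library for the 34 tested members, in order of the WT mean; open points are WT libraries and filled points Eumyc libraries. The Eumyc points of Tm7sf2, Scd2 and Acss2 lie well to the left of their WT points, while those of Sqle, Idi1, Cyp51, Fdft1 and Fads1 lie well to the right.

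Libraries of 1 group also differed among themselves. Eumyc 1 exceeded the average of Eumyc 2 and 3 for 16 of 18 sterol enzymes, by a median of 0.15 in log2 CPM, where it did so for 49.3% of all tested genes, by a median of 0.00. The same count was 4 of 6 for SREBP genes and 5 of 10 for fatty acid enzymes. The difference was 0.89 for Sqle, 0.60 for Idi1, 0.58 for Cyp51, 0.28 for Srebf2 and 0.32 for Insig1, and among fatty acid enzymes it was 0.83 for Scd1. Eumyc 1 also held the most monocyte and macrophage transcripts, with a summed level of 1097 CPM against 483 and 632, and 0 of 15 cell division genes were above that average. The part of these cells in the sterol values was not tested. Eumyc 2 lay the other way. It exceeded the average of Eumyc 1 and 3 for 1 of 18 sterol enzymes, with a median difference of -0.11, and for 48.6% of all tested genes. It did so for 0 of 10 monocyte and macrophage markers. With 3 libraries, a high Eumyc 1 and a low Eumyc 2 cannot be told apart. Without Eumyc 1, the log2 fold changes were 1.41 for Sqle, 1.49 for Idi1, 1.05 for Cyp51, 0.71 for Srebf2 and 0.89 for Scd1, and each still passed in edgeR, with adjusted p-values of 0.00374, 0.00603, 0.00214, 0.00148 and 0.0479.

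WT 3 was the WT library with the most cell division transcripts. In it 17 of 34 members were above the mean of WT 1 and 2, and 50.3% of all tested genes were. The classes went different ways, with 12 of 18 sterol enzymes (median difference 0.06) and 4 of 6 SREBP genes (0.07) above. Fads1 was higher there by 1.08 and Idi1 by 0.68 in log2 CPM, and Scd1, Acat2, Acss2 and Tm7sf2 were lower by 0.62, 0.53, 0.53 and 0.52. Only 1 of 10 tested fatty acid enzymes, Fads1, was above the mean of WT 1 and 2, and the median difference of that class was -0.11. With both WT 3 and Eumyc 1 left out, 15 members were higher and 4 lower, where 3935 of all tested genes were higher and 3223 lower. Among sterol enzymes 7 were higher and 2 lower, the second being Acat2 (adjusted p = 0.0403 in edgeR). In that fit Acly (adjusted p = 0.0654), Scd1 and Elovl6 (0.0577) no longer passed.

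**Figure D4:**
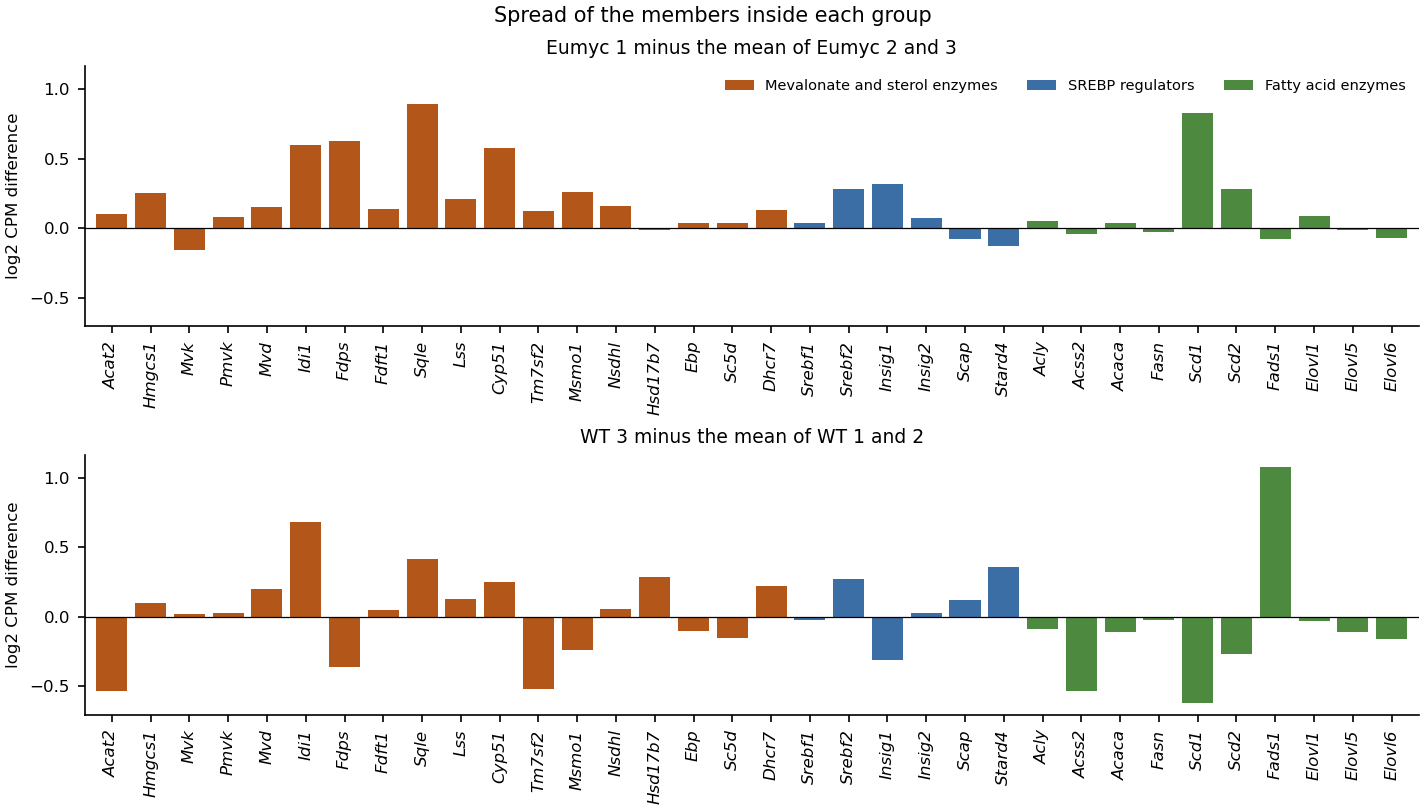
Difference in log2 CPM between Eumyc 1 and the mean of Eumyc 2 and 3 (top) and between WT 3 and the mean of WT 1 and 2 (bottom) for the 34 tested members, coloured by class. In Eumyc 1 the bars of 16 of 18 sterol enzymes point up, with Sqle at 0.89, and in WT 3 Fads1 stands out at 1.08.

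A further list of 32 genes of the same routes, not among the members, was read from the same fit. Of its 27 tested genes 11 were higher and 5 lower in Eumyc, with a median log2 fold change of 0.23. These shares were 40.7% and 18.5%, against 25.7% and 23.1% of all tested genes, and they carry no test. Acsl5 and Acsl4, which encode enzymes that activate fatty acids with coenzyme A, rose from 157 ± 8.46 to 251 ± 10.1 CPM and from 69.4 ± 4.22 to 89.9 ± 3.81 CPM (SD, n = 3 each; edgeR adjusted p = 0.000194 and 0.00241). Hsd17b12, the ketoacyl reductase gene of chain elongation, rose from 40.2 ± 5.77 to 59.3 ± 1.88 CPM (adjusted p = 0.00286 in edgeR). Elovl7, another elongase gene, fell from 40.6 ± 6.62 to 23.5 ± 4.74 CPM (edgeR adjusted p = 0.00557). Mlycd, whose enzyme breaks down malonyl-CoA, and Mbtps1, which encodes the site-1 protease that cuts SREBPs, had log2 fold changes of -0.36 and -0.20 (edgeR adjusted p = 0.0119 and 0.0383). Calls in this list were less firm. The count of higher genes was 6 without WT 2 and 7 without WT 1, and that of lower genes 2 and 3. Over all tested genes the higher calls also went from 3973 to 3253 and 3312 in these fits. The lower calls over all tested genes went from 3576 to 2638 and 2762. Mlycd and Mbtps1 passed in neither fit. Mbtps1 also did not pass without any single Eumyc library.

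Acsl3, an acyl-CoA synthetase gene singled out after its values were seen, fell from 9.43 ± 2.64 to 4.28 ± 0.269 CPM (SD, n = 3 each; edgeR adjusted p = 0.00270).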

How the data were processed

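RNA of sorted splenic NK cells was measured in 3 WT and 3 Eumyc libraries. The authors deposited whole-number read counts per Ensembl gene, and a table of their own comparison with log2 fold changes and p-values. The tools that the submitters' processing notes name are the aligner STAR (2.5.2), HTSeq (0.6.1) for counting and, for the comparison, DESeq2 (1.10.1), and the builds are mm10 and GRCm38. No source used here gives the annotation release, strand setting or read filters.

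Groups came from the sample titles. The test was that of edgeR 4.0.16, run in R 4.3.3 (filterByExpr at a minimum count of 10, TMM scaling, group alone, quasi-likelihood F test, two-sided), and Benjamini-Hochberg adjustment covered all 15458 genes, at a threshold of 0.05. Standard errors come from the F statistic, CPM are TMM-scaled, and marker sums are CPM of all gene counts. Log2 CPM used a prior count of 2. Exon lengths are GENCODE M21 exon unions, which can exceed the expressed transcript, and near-identical transcripts were sought with BLAST 2.17.0. Limits given for counts of 0 take in counting error alone, as duplicate reads from PCR cannot be recognised. The script was tested on simulated counts.

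The members and lists were chosen with earlier results of these data known. Values in every library are given for the SREBP genes, for called enzymes with a log2 fold change of at least 0.5 in size, and for lower calls. In the further list, up to 3 called genes per direction with at least 10 CPM in the higher group are named. Alternatives were voom in limma 3.58.1, plain or quality weighted, DESeq2 1.42.0, other scalings and filters, a 1.5-fold test, the replicate number as a block, and fits short of 1 library each; leaving out WT 3 with Eumyc 1, and thinning all libraries to 16407611 counts, were chosen after seeing the data. Figures used matplotlib 3.10.9. 1 result of the further list is not reported here.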

Additional observations from a re-analysis of the deposited data

How the results depend on the processing

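Over 18 alternatives, the 20 called members kept their direction in every one that tested them, and 6 (Idi1, Fdft1, Sqle, Cyp51, Fads1 and Acss2) also kept their call in every one. Of the 14 tested members without a call, 12 gained none, and Acat2 and Hsd17b7 did. Fads2, untested in the main fit, was called higher in the unfiltered fit and in those without WT 1, WT 2, WT 3 or Eumyc 3. It is among the 7 higher fatty acid enzymes of these fits. Insig2 turned to -0.02 at equal depth and Scap to 0.01 without WT 3 and Eumyc 1 (from -0.10 to 0.01 over fits that left out libraries); in the further list Mbtps2 turned to 0.02 without WT 2, 0.02 without Eumyc 1 and 0.07 at equal depth (-0.09 to 0.02 over fits that left out libraries), and Mcat to -0.07 at equal depth. None of these 4 genes was called in the fits named.

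Testing against 1.5-fold left, among all genes, 1260 that were higher and 568 that were lower, 5 and 1 members, 4 and 0 sterol enzymes, 0 higher SREBP genes, 1 and 1 fatty acid enzymes and 2 and 1 genes of the further list; this alternative asks for a larger change by construction. Leaving out single libraries gave 3252 to 4284 higher calls and 2616 to 3623 lower ones among all genes. For members the ranges were 16 to 18 and 3 to 5, for sterol enzymes 7 to 8 and 1 to 2, for fatty acid enzymes 6 to 7 and 2 to 3, and for the further list 6 to 10 and 2 to 6, while SREBP genes stayed at 3 and 0. Without both WT 3 and Eumyc 1, 15 members and 5 fatty acid enzymes were higher, and 2 sterol enzymes were lower. Among all genes 3935 were higher and 3223 lower in that fit. At equal depth, where fewer counts were used, 6 genes of the further list and 3140 of all genes were higher. The causes of the other shifts were not tested.

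Replicate numbers were not taken as pairs, since the labels do not say that they pair samples. The correlations of same-numbered libraries' deviations were 0.040, 0.099 and 0.126, against -0.119 to 0.035 for differently numbered ones. Every library thus correlated best with its own number, and whether same-numbered libraries shared a step was not tested. With a replicate block the members' counts stayed at 16 higher and 4 lower, with 4176 and 3684 over all genes. Fdps, Scd1 and Fads2 were the least counted members with any counts, so their values rest on few reads. At equal depth Scd1 kept its call (log2 fold change 1.27, edgeR adjusted p = 0.0192), and Elovl6 lost its call (edgeR adjusted p = 0.0774).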
